A study of Mus musculus with 22 samples.

Results

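The comparison described here is exposure to PFOS within the inulin diet: the Inulin_PFOS group (n = 3) against the Inulin group (n = 3), which are 6 of the 22 intestinal RNA-seq libraries of the series. The 6 libraries were chosen by the group name and number in their titles. All mice were wild-type male C57BL/6, an inbred strain, 7 weeks old when they started on an irradiated diet that they ate for 7 weeks. Fibre made up 8% of that diet by weight, and fat, protein and carbohydrate gave 35%, 20% and 45% of its energy. Both groups ate inulin, a fructan that gut bacteria ferment. Inulin_PFOS mice also took in PFOS (perfluorooctanesulfonic acid, a persistent fluorinated surfactant) with their drinking water, at 3 µg per kg of body weight per day. The other groups used here are PFOS and Control (cellulose fibre, which is poorly fermented) and Pectin_PFOS and Pectin (pectin fibre), each n = 4, with the same exposure or none. One treatment field of every sample, the unexposed ones included, mentions PFOS, so exposure rests on the group names in the titles. The labels call the samples biological replicates and do not say whether each came from its own animal, so the p-values measure the spread between these samples. The tissue is labelled only as intestinal, and the gut segment is not given in the sources used here.

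PFOS has the shape of a fatty acid and is best known in rodents for acting on the liver through PPAR-alpha, a nuclear receptor that switches on genes of fatty acid oxidation, and through CAR and PXR, receptors that control drug-metabolising enzymes. The gut epithelium takes up nutrients, and it also keeps bacteria away with mucus and antimicrobial proteins and answers to interferons from neighbouring immune cells. When amino acids run short or proteins misfold, cells translate the transcription factor ATF4, which turns on genes for amino acid synthesis, transport and tRNA charging.

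The 6 libraries held 17928420 to 19780265 counts and 13608 to 14474 genes with at least 10 counts. Ileal genes were at high levels in both groups: Fabp6, the ileal bile acid binding protein, averaged 3260 CPM (counts scaled to library size) in Inulin_PFOS and 2828 CPM in Inulin, and Slc10a2, the ileal bile acid transporter, 221 and 219 CPM. The colon markers Car1, Aqp8, Hoxb13 and Ly6g6c and the duodenal factor Pdx1 stayed under 0.12 CPM in every library of the 6. Inulin replicate 3 stood apart, with 493 CPM summed over 8 B cell markers against 29.9 to 71.0 CPM in the other 5 libraries, and with 12.2% mitochondrial counts against 3.95% to 7.90% in the others.

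PFOS on the inulin diet changed few genes by the test used. Of 15763 genes tested, 25 passed an adjusted p under 0.05 with edgeR's quasi-likelihood test, which is 0.159% of all genes. In Inulin_PFOS 11 genes (0.0698%) were higher and 14 (0.0888%) lower. The higher ones included enzymes of amino acid and folate metabolism (Mthfd2, Asns, Mars), the transcription factors Jdp2 and Atf5, the uridine phosphorylase Upp1 and the interferon-induced Ifit1bl1. The lower ones included the procollagen protease Bmp1, the cytochromes P450 Cyp2d26 and Cyp4f16, the carboxylesterase Ces2b and the acyl-CoA thioesterase Acot1. The groups did not overlap for any of the 25. Among all genes, the Inulin_PFOS libraries were all above the Inulin ones for 12.2% and all below them for 12.1%, and an unadjusted p under 0.05 was found for 2963 genes (18.8%).

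The number of calls depended on single libraries and on the model. Leaving out 1 of the 6 libraries left between 2 calls (without Inulin replicate 1, and likewise without Inulin_PFOS replicate 1) and 147 calls (without Inulin replicate 3), and a model of these 6 libraries alone called 0 (2800 genes had an unadjusted p under 0.05). DESeq2 called 515 genes, 24 of the 25 among them. Jdp2 and Mthfd2 were called whichever library was left out. Over all alternatives, their adjusted p lay between 6.28e-11 and 0.064 for Jdp2 and between 6.28e-11 and 0.0632 for Mthfd2, the highest in each case in the model of the 6 libraries alone.

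**Figure D1:**
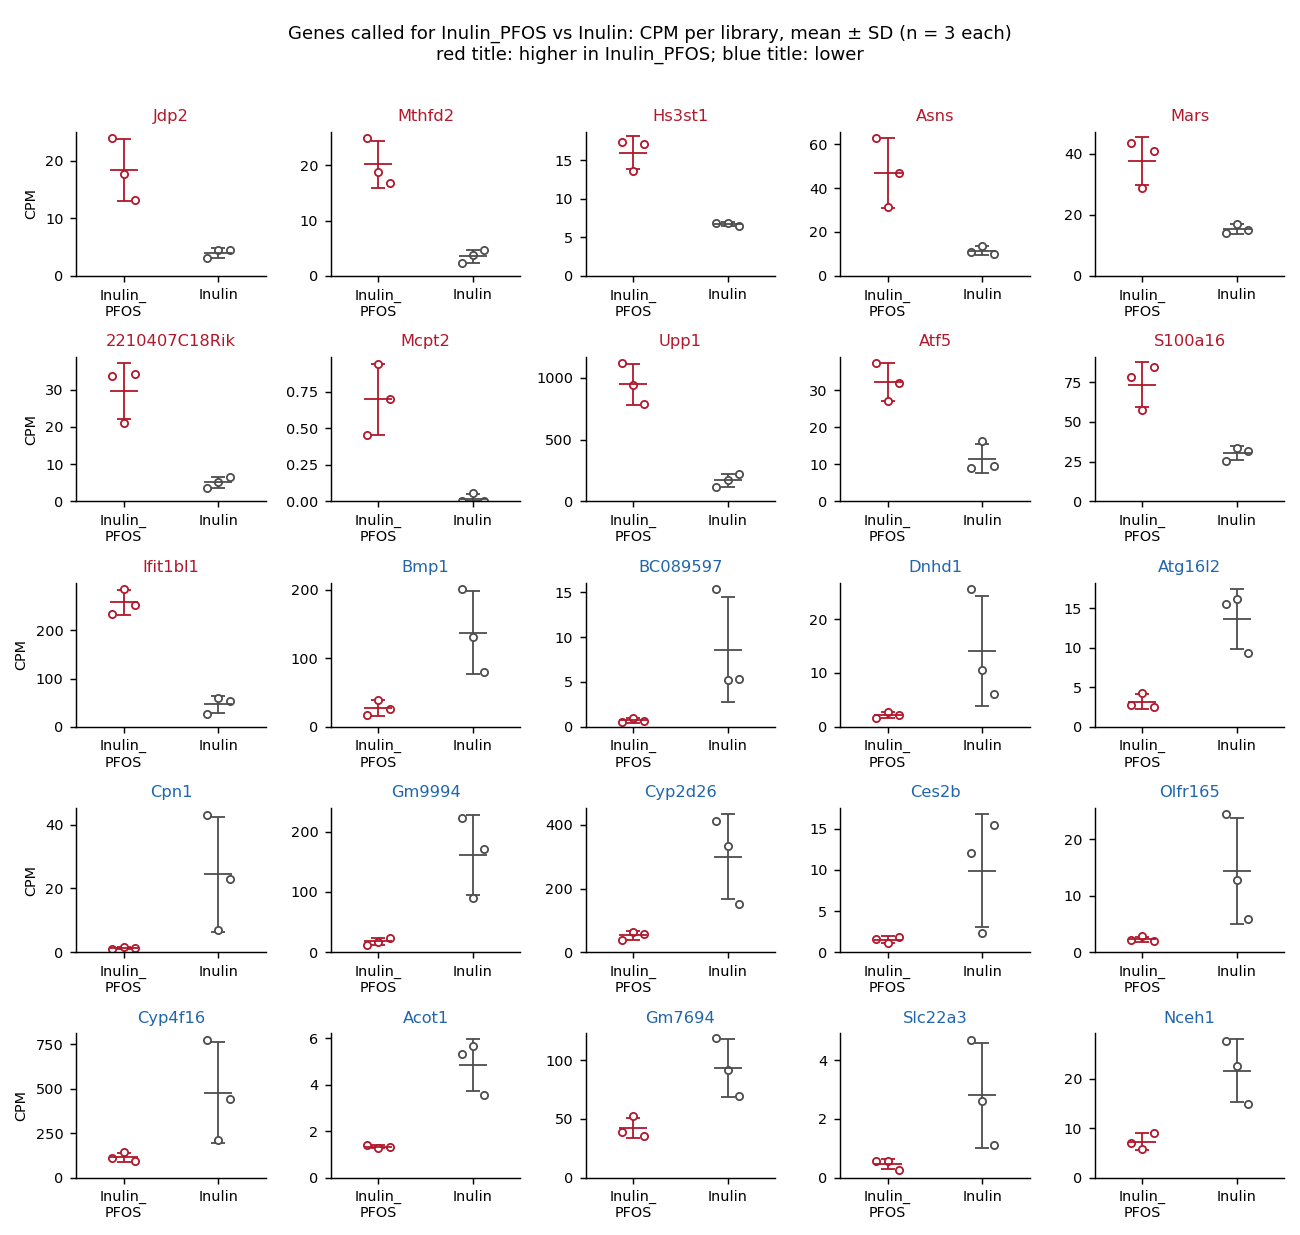
Level in CPM (TMM-scaled, linear axes from 0) of the 25 genes called for Inulin_PFOS against Inulin, 1 panel per gene, with a circle per library and the mean ± SD of 3 libraries per group. Inulin_PFOS stands on the left and Inulin on the right of each panel, and no panel shows overlap between the groups. The Inulin libraries are spread widely for many of the lower genes, such as Cpn1 at 6.90 to 43.1 CPM.

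Among genes of amino acid and one-carbon metabolism, Mthfd2, the mitochondrial methylenetetrahydrofolate dehydrogenase that supplies formyl groups for purine and mitochondrial protein synthesis (chromosome 6, positions 83305691 to 83325908 on GRCm38), was at 25.0, 18.9 and 16.8 CPM in Inulin_PFOS replicates 1, 2 and 3, against 2.29, 3.73 and 4.63 CPM in Inulin replicates 1, 2 and 3. The lowest exposed library was thus well above the highest unexposed one. Its log2 fold change was 2.51 ± 0.32 (SE; adjusted p = 0.00108). Jdp2, a leucine zipper protein that pairs with Jun and represses its targets (chromosome 12, 85599105 to 85639878), was at 24.02, 17.8 and 13.3 CPM in Inulin_PFOS, against 3.01, 4.45 and 4.40 CPM in Inulin. Its change was 2.21 ± 0.28 on the log2 scale (adjusted p = 0.00108).

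Asns, asparagine synthetase (chromosome 6, 7675169 to 7693254), was at 63.0, 31.2 and 46.8 CPM in Inulin_PFOS and at 10.96, 13.7 and 9.76 CPM in Inulin. The log2 fold change was 2.03 ± 0.30 (adjusted p = 0.00523), and the call was lost without Inulin replicate 1 and without Inulin_PFOS replicate 1. Atf5, a leucine zipper transcription factor related to ATF4 (chromosome 7, 44812257 to 44816658), was at 37.4, 27.1 and 31.8 CPM in Inulin_PFOS and at 9.03, 16.1 and 9.42 CPM in Inulin, a log2 fold change of 1.48 ± 0.27 (adjusted p = 0.0203). Atf4 itself was at 377, 258 and 346 CPM in Inulin_PFOS and at 222, 358 and 194 CPM in Inulin. These ranges overlapped and Atf4 was not called (0.34 ± 0.25, adjusted p = 0.475). On the TPM scale, which allows genes to be compared per length, Asns averaged 27.8 ± 6.81 TPM, Atf5 19.7 ± 2.04 TPM, Jdp2 12.7 ± 3.41 TPM and Mthfd2 10.9 ± 2.01 TPM in Inulin_PFOS (SD, n = 3). In Inulin the same genes averaged 7.81 ± 2.00, 8.36 ± 3.19, 3.23 ± 0.55 and 2.71 ± 0.76 TPM.

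The list of the ATF4 response held 34 genes, 32 of them tested. Of these, 3 (Jdp2, Asns and Atf5) were called higher and none lower, against 0.0698% and 0.0888% of all genes. Positive log2 fold changes were found for 23 of the 32, against 49.4% of all genes, with a median of 0.31 against −0.01 over all genes tested (0.50 without Inulin replicate 2). The Inulin_PFOS libraries were all above the Inulin ones for 14 members (43.8%, against 12.2% of all genes). They were all below for 2 members (6.25%, against 12.1% of all genes). Chac1, which breaks down glutathione, came next at 25.8, 25.6 and 13.2 CPM in Inulin_PFOS and 3.31, 5.17 and 5.19 CPM in Inulin (2.24 ± 0.52, adjusted p = 0.0705). Ddit3, the stress factor CHOP, was at 12.1, 15.1 and 16.04 CPM in Inulin_PFOS and at 19.1, 23.3 and 19.9 CPM in Inulin (−0.53 ± 0.30, adjusted p = 0.342).

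The serine and folate enzymes showed Mthfd2 as the only call among 19 tested, with 17 positive log2 fold changes and a median of 0.58 (0.36 without Inulin replicate 2, and 0.85 without Inulin replicate 3). Psat1, the phosphoserine aminotransferase of serine synthesis, was at 16.5, 8.56 and 11.4 CPM in Inulin_PFOS and 2.65, 4.45 and 5.74 CPM in Inulin (1.501 ± 0.42, adjusted p = 0.101). Aldh1l1, the cytosolic formyl-tetrahydrofolate dehydrogenase, was at 223, 212 and 217 CPM in Inulin_PFOS against 140, 157 and 101 CPM in Inulin (0.71 ± 0.22, adjusted p = 0.127). Psph and Phgdh, the other enzymes of serine synthesis, overlapped between the groups.

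Among cytosolic aminoacyl-tRNA synthetases, which load amino acids onto tRNAs, Mars (methionine) rose: it was at 43.7, 28.8 and 40.9 CPM in Inulin_PFOS and at 14.0, 17.1 and 14.9 CPM in Inulin (1.30 ± 0.22, adjusted p = 0.0136). It was the single call of 20 tested, and 17 of the 20 had a positive log2 fold change (median 0.63). The groups were apart for 14 of the 20, all higher in Inulin_PFOS (70%, against 12.2% of all genes). Yars (tyrosine) at 35.1, 26.0 and 32.8 CPM in Inulin_PFOS against 13.5, 18.2 and 13.8 CPM in Inulin missed the threshold narrowly (1.04 ± 0.22, adjusted p = 0.0514), as did Gars (glycine) at 0.94 ± 0.20 (adjusted p = 0.0544). The mitochondrial synthetases held no call among 17 tested and had a median of 0.07, which ran between 0.01 (without Inulin_PFOS replicate 1) and 0.17 (without Inulin_PFOS replicate 2). Exons of Mars and Ddit3 overlap on opposite strands in the GENCODE M21 annotation. The library kit keeps the strand, but whether the counting used it is not stated, so the values of Mars are uncertain to that extent. The same holds for Atf5, whose exons overlap Il4i1 and Nup62 on the opposite strand, and for Jdp2, which overlaps Gm47863. The ER chaperone and unfolded protein list, the other arm of the stress response, had no call among 24 tested, 12 positive and 12 negative log2 fold changes and a median of −0.02, whose sign changed with the library left out (−0.17 without Inulin replicate 3, 0.04 without Inulin replicate 2).

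Promoter sequences are shown for 3 of these genes because ATF4 is known to bind, as a dimer with C/EBP proteins, to the motif TGATGNAA in promoters of amino acid genes. Each line gives the 250 bases before an annotated start from RefSeq (GRCm38.p6), 5′ to 3′ on the gene's strand, with matches to the motif on either strand in capitals. The windows are chr6:7693210-7693459 on the minus strand for Asns, chr12:85599166-85599415 on the plus strand for the second of 3 Jdp2 starts, and chr6:83317605-83317854 on the minus strand for Mthfd2.
Asns: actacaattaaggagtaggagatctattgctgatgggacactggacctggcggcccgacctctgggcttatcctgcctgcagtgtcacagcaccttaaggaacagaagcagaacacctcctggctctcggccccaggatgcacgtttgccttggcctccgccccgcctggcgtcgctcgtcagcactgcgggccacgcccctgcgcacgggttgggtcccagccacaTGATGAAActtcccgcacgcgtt
Jdp2: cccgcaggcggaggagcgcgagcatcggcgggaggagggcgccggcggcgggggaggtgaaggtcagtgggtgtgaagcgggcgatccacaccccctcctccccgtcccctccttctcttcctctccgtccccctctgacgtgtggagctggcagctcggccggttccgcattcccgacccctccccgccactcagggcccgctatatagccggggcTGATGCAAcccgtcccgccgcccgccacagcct
Mthfd2: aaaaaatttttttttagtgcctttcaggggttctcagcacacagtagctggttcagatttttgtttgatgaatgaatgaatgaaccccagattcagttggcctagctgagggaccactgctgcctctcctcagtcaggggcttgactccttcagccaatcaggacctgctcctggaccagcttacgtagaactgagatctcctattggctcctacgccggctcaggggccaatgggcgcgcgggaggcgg
The match ends 16 bases before the start in Asns and 26 bases before it in Jdp2, and the Mthfd2 window held no match. The windows of the other Jdp2 starts and those of Atf5, which are not printed, held no match either. RefSeq windows matched 9 of the 11 higher genes and 9 of the 14 lower ones, Mars not among them. In windows of 300 bases (250 before to 50 after the start), 3 of the 9 higher genes (Jdp2, Asns and Ifit1bl1) and 1 of the 9 lower ones (Olfr165) had a match. Counted by window, 3 of 16 (18.8%) of the higher genes and 1 of 9 (11.1%) of the lower genes had a match. Of all 32851 windows given, 3.97% had one, or 4.51% of 27025 genes. These matches describe letters only, and binding was not measured.

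Upp1, which cleaves uridine into uracil and ribose phosphate (chromosome 11, 9118103 to 9136170), was the most abundant of the higher genes per length, at 1112 ± 243 TPM in Inulin_PFOS and 224 ± 45.1 TPM in Inulin (SD, n = 3). Its level was 1119, 941 and 785 CPM in Inulin_PFOS and 117, 171 and 219 CPM in Inulin, a log2 fold change of 2.49 ± 0.45 (adjusted p = 0.0203). Hs3st1, a sulfotransferase that modifies heparan sulfate, was at 17.3, 13.6 and 17.2 CPM in Inulin_PFOS against 6.80, 6.90 and 6.47 CPM in Inulin (1.25 ± 0.19, adjusted p = 0.00523). The Inulin libraries were nearly equal for this gene. S100a16, a calcium-binding protein, was at 78.0, 57.5 and 84.7 CPM in Inulin_PFOS and at 25.4, 33.8 and 31.4 CPM in Inulin (1.28 ± 0.25, adjusted p = 0.0368). The unnamed model 2210407C18Rik also rose, to 29.6 ± 7.49 CPM against 5.06 ± 1.55 CPM (SD, n = 3).

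Mcpt2, a chymase of mucosal mast cells, was near the counting limit. It had 8, 17 and 13 counts in Inulin_PFOS replicates 1, 2 and 3 and 0, 1 and 0 counts in Inulin, a ratio of scaled counts of 36.8 (95% interval 6.22 to 1490, for counting error only). The adjusted p was 0.019. In bulk tissue more cells of a type and more RNA per cell cannot be told apart, here and for every other gene.

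Interferon-induced genes were represented among the calls by Ifit1bl1 (chromosome 19, 34592888 to 34601968), a relative of the antiviral IFIT proteins. It was at 235, 287 and 253 CPM in Inulin_PFOS and at 26.7, 59.2 and 54.4 CPM in Inulin (2.46 ± 0.48, adjusted p = 0.0368). None of 30 type I interferon stimulated genes was called, with 23 positive log2 fold changes and a median of 0.50 (0.18 without Inulin_PFOS replicate 2). None of 16 interferon-gamma induced GTPases was called either, with 15 positive and a median of 1.46 (1.97 without Inulin replicate 3). The exposed libraries were all higher for 11 of the 16 (68.8%, against 12.2% of all genes). Irgm2, one of these GTPases, which act on vacuoles holding microbes, was at 65.7, 64.5 and 25.3 CPM in Inulin_PFOS and at 7.04, 10.1 and 11.5 CPM in Inulin (2.44 ± 0.54, adjusted p = 0.0575). Inulin_PFOS replicate 3 was lower than the other exposed libraries for Irgm2 and for Igtp, at 67.8, 65.4 and 21.2 CPM against 5.60, 8.29 and 10.04 CPM in Inulin (2.69 ± 0.75, adjusted p = 0.102). Zbp1, a sensor of left-handed nucleic acids, was at 91.7, 107 and 51.4 CPM in Inulin_PFOS and at 4.09, 21.4 and 16.5 CPM in Inulin (2.57 ± 0.61, adjusted p = 0.0735).

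Antigen presentation and defence genes had no call. MHC class I processing genes had 13 positive log2 fold changes of 14 tested (median 0.74). Psme1, an activator subunit of the proteasome, was at 270, 216 and 278 CPM in Inulin_PFOS and at 111, 135 and 141 CPM in Inulin (0.98 ± 0.23, adjusted p = 0.0697). The median of 10 MHC class II genes, 0.90, depended on single Inulin libraries: it was 0.42 without replicate 1, also lower without replicate 2, and 2.26 without replicate 3, the library rich in B cell markers. Cd74, the class II invariant chain, was at 1138, 1194 and 1219 CPM in Inulin_PFOS and at 92.9, 249 and 1195 CPM in Inulin. Antimicrobial and epithelial defence genes had 19 positive log2 fold changes of 21 tested and a median of 1.40. Of the 21, 13 were higher in all exposed libraries (61.9%, against 12.2% of all genes). Lypd8, which keeps flagellated bacteria off the colonic epithelium, was at 3008, 2292 and 2342 CPM in Inulin_PFOS and at 620, 1629 and 626 CPM in Inulin (1.41 ± 0.43, adjusted p = 0.125). Retnlb, a bactericidal goblet cell product, was at 16.8, 2.32 and 0.87 CPM in Inulin_PFOS and at or under 0.06 CPM in Inulin (adjusted p = 0.101).

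Markers of several cell types differed between the groups beside these genes. Summed over 10 T cell markers, the level was 220, 260 and 305 CPM in Inulin_PFOS and 43.9, 106 and 141 CPM in Inulin. Gzma, a granzyme of cytotoxic cells, made up the larger part of that sum in Inulin_PFOS, at 125, 150.3 and 231 CPM. In Inulin it was the smaller part, at 19.6, 50.2 and 62.8 CPM. The 10 T cell markers had 7 positive and 3 negative log2 fold changes (median 0.32). Among them 3 (Gzma, Gzmb and Cd8a) were higher in all exposed libraries (30%, against 12.2% of all genes). Plasma cell markers summed to 2651, 1642 and 2686 CPM in Inulin_PFOS and 298, 889 and 1332 CPM in Inulin. Goblet, Paneth and fibroblast marker sums did not overlap either, and all their Inulin_PFOS values were the higher ones. For each of these 5 sums the two-sided exact permutation p was 0.1, the smallest that 3 against 3 samples allow. With 19 marker sums tested, some can reach this p by chance. The exocrine pancreas sum also had a p of 0.1 in this test, at a low mean of 4.29 CPM in Inulin_PFOS and 3.06 CPM in Inulin. Enterocyte, myeloid, smooth muscle and B cell sums overlapped. The smooth muscle sum was highest in Inulin_PFOS replicate 2, at 10287 CPM, against 1384 to 4690 CPM in the other 5 libraries. The part of cell type proportions in the gene results was not tested.

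**Figure D2:**
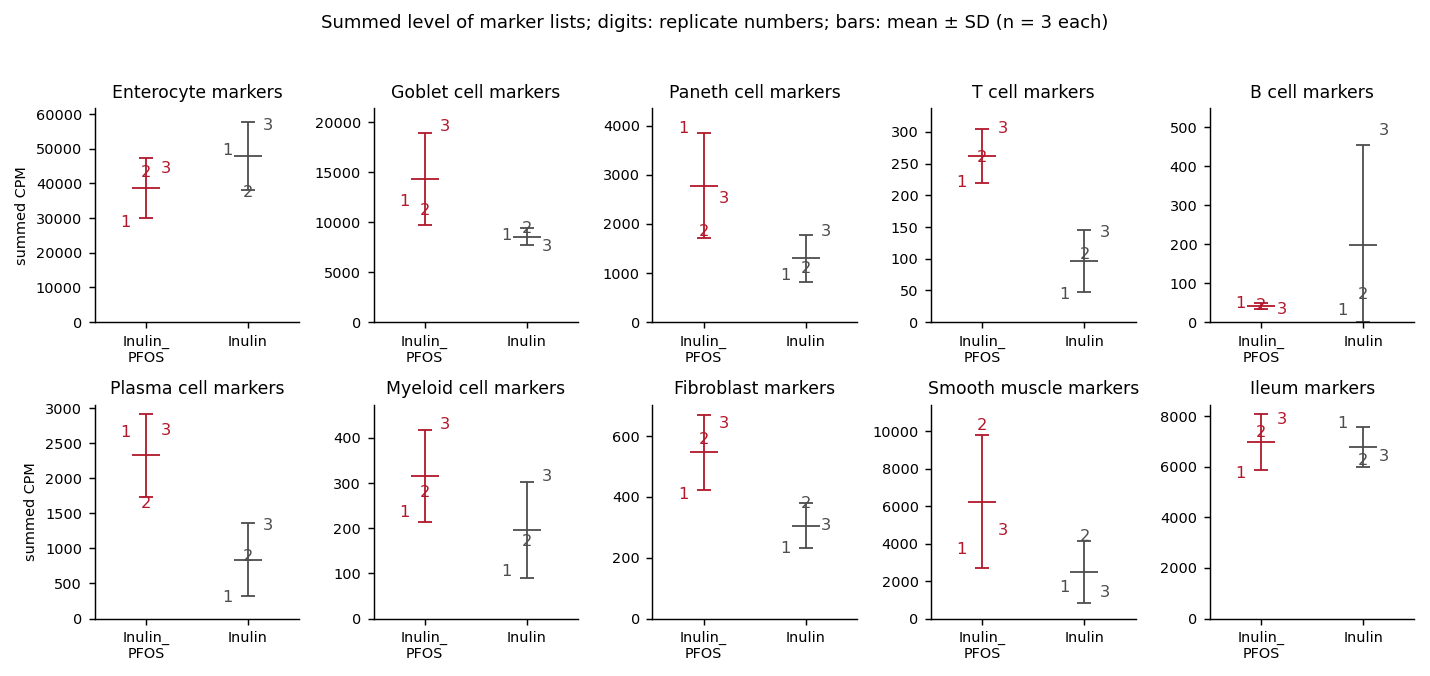
Summed CPM of 10 marker lists, with Inulin_PFOS on the left and Inulin on the right of each panel, digits for the replicate numbers and bars for the mean ± SD of 3 libraries (a bar that would pass below 0 is cut there). T cell, plasma cell, goblet, Paneth and fibroblast sums do not overlap between the groups, and the B cell sum of Inulin replicate 3 (493 CPM) lies far above the rest.

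Among the lower genes, Bmp1, the protease that trims procollagen (chromosome 14, 70474557 to 70520260), was at 16.6, 38.9 and 26.0 CPM in Inulin_PFOS, against 201, 131 and 80.0 CPM in Inulin. It fell by 2.34 ± 0.38 on the log2 scale (adjusted p = 0.0136). Bmp1 was the only call among 16 tested genes of procollagen processing and fibrillar collagen, and 13 of the 16 had a positive log2 fold change (median 0.66). That median was 1.14 without Inulin replicate 2 and 0.42 without Inulin_PFOS replicate 2, and it was nearly as low without Inulin replicate 1 or 3. Col1a1, a chain of the main fibrillar collagen, was at 28.3, 43.0 and 29.5 CPM in Inulin_PFOS and at 7.17, 21.4 and 17.0 CPM in Inulin (1.14 ± 0.48, adjusted p = 0.209). The fibroblast marker sum, which holds Col1a1 and Col1a2, was 408, 589 and 642 CPM in Inulin_PFOS and 231, 378 and 305 CPM in Inulin.

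Cyp2d26, a cytochrome P450 (chromosome 15, 82790107 to 82794245), was at 37.6, 63.4 and 58.2 CPM in Inulin_PFOS and at 413, 334 and 152 CPM in Inulin, and fell by 2.50 ± 0.47 on the log2 scale (adjusted p = 0.0282). Cyp4f16, of the P450 family that oxidises fatty acids and eicosanoids, was at 108, 142 and 93.0 CPM in Inulin_PFOS and at 776, 213 and 440 CPM in Inulin (−2.06 ± 0.40, adjusted p = 0.0368). The Inulin libraries differed more than 3-fold among themselves for Cyp4f16. Ces2b, a carboxylesterase, was at 1.64, 1.05 and 1.84 CPM in Inulin_PFOS and at 12.04, 2.28 and 15.4 CPM in Inulin (−2.71 ± 0.52, adjusted p = 0.0328). Slc22a3, an organic cation transporter, had 10, 10 and 5 counts in Inulin_PFOS and 78, 47 and 20 counts in Inulin, a ratio of scaled counts of 0.167 (95% interval 0.105 to 0.257, for counting error only; adjusted p = 0.0427). Its transcripts share 422 bases with Plg, which lies on the opposite strand. Cyp4f16 shares 1607 bases at 96.1% identity with Cyp4f37 and Cyp2d26 239 bases at 95.4% with Cyp2d10, so their counts could be split between copies.

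None of 19 CAR and PXR target genes was called, with 17 negative log2 fold changes and a median of −0.82 (−0.56 without Inulin replicate 3). In 10 of the 19 (52.6%, against 12.1% of all genes) every Inulin_PFOS library was lower. Cyp2c65, a P450 of the gut epithelium, was at 32.7, 26.2 and 32.0 CPM in Inulin_PFOS and at 103, 87.2 and 114 CPM in Inulin (−1.75 ± 0.39, adjusted p = 0.0575). Abcb1a, the drug pump P-glycoprotein, was at 272, 276 and 253 CPM in Inulin_PFOS and at 871, 408 and 721 CPM in Inulin (−1.32 ± 0.53, adjusted p = 0.194). Cyp2b10, a classical CAR target in mouse liver, was at 1.87, 2.60 and 3.197 CPM in Inulin_PFOS and 2.05, 4.23 and 8.53 CPM in Inulin (−0.95 ± 1.26, adjusted p = 0.707). Of the ABCC transporters, which pump conjugates out of cells, 0 of 10 were called. Abcc5 came nearest at 11.3, 19.9 and 11.5 CPM in Inulin_PFOS and 84.7, 50.9 and 24.6 CPM in Inulin (−1.91 ± 0.39, adjusted p = 0.051).

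Acot1, which releases fatty acids from coenzyme A in the cytosol and is a PPAR-alpha target in liver (chromosome 12, 84009502 to 84017670), was at 1.42, 1.27 and 1.30 CPM in Inulin_PFOS and at 5.30, 5.67 and 3.57 CPM in Inulin. It fell by 1.86 ± 0.37 on the log2 scale (adjusted p = 0.0368), and the call was lost without any one of 5 of the 6 libraries. It was the only member of the PPAR-alpha and fatty acid oxidation list called, of 36 tested, and it shares 1274 bases at 95.1% identity with Acot2. Negative log2 fold changes were found for 32 of the 36, against 50.6% of all genes (median −0.46). In all exposed libraries 19 of the 36 were lower (52.8%, against 12.1% of all genes). Acaa1b, a peroxisomal thiolase, was at 3.06, 4.20 and 5.74 CPM in Inulin_PFOS and at 38.3, 32.5 and 20.0 CPM in Inulin (−2.80 ± 0.63, adjusted p = 0.0639).

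Other well-known PPAR-alpha targets did not pass the test. Cpt1a, which carries long-chain fatty acids into mitochondria, was at 78.5, 61.2 and 61.4 CPM in Inulin_PFOS and at 163, 93.7 and 133 CPM in Inulin (−0.95 ± 0.33, adjusted p = 0.156). Pdk4, a brake on glucose oxidation, was at 12.1, 16.2 and 15.7 CPM in Inulin_PFOS and at 39.6, 47.3 and 24.2 CPM in Inulin (−1.33 ± 0.53, adjusted p = 0.191). Angptl4, an inhibitor of lipoprotein lipase, was at 29.5, 46.8 and 64.2 CPM in Inulin_PFOS and at 171, 140 and 46.4 CPM in Inulin (−1.35 ± 0.49, adjusted p = 0.167). Inulin replicate 3 fell within the exposed range for Angptl4. Cyp4a10 was too low to be tested.

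The remaining lower genes have varied roles. Cpn1, a subunit of carboxypeptidase N, was at 1.08, 1.71 and 1.19 CPM in Inulin_PFOS and at 43.1, 6.90 and 23.03 CPM in Inulin (−4.19 ± 0.76, adjusted p = 0.0231). Nceh1, a neutral cholesterol ester hydrolase, was at 7.08, 5.74 and 8.99 CPM in Inulin_PFOS and at 27.6, 22.5 and 14.8 CPM in Inulin (−1.57 ± 0.32, adjusted p = 0.0441). Atg16l2, a relative of the autophagy protein ATG16L1, was at 2.78, 4.25 and 2.49 CPM in Inulin_PFOS and at 15.6, 16.2 and 9.31 CPM in Inulin (−2.11 ± 0.38, adjusted p = 0.0203), and its exons overlap Fchsd2 on the opposite strand. The unexposed libraries ran above the exposed ones in each case, with Inulin replicate 2 lowest for Cpn1 and replicate 3 lowest for Nceh1 and Atg16l2. Dnhd1, which encodes a dynein-related protein, fell by 2.72 ± 0.47, Olfr165, an olfactory receptor gene, by 2.65 ± 0.51 and BC089597 by 3.61 ± 0.60 on the log2 scale. Dnhd1 overlaps Gm45799 on the same strand, with 99.0% identity over 3155 bases. Gm9994 fell too, but its transcripts match Gal3st2 at 99.6% over 2576 bases, and Gal3st2 was not called (−0.46 ± 0.36, adjusted p = 0.498). Gm7694, whose exons overlap those of Nos1ap on the same strand, fell by 1.15 ± 0.23.

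The lists that follow had no call. All 27 nuclear genes of oxidative phosphorylation had a positive log2 fold change, with a median of 0.45. Of these, 15 were higher in every exposed library (55.6%, against 12.2% of all genes). Cox5a, a subunit of cytochrome oxidase, was at 305, 227 and 326 CPM in Inulin_PFOS and at 182, 170 and 185 CPM in Inulin (0.67 ± 0.20, adjusted p = 0.11). Of 20 circadian clock genes 16 had a negative value (median −0.58), and Cry2, a repressor of the clock, was at 14.6, 23.3 and 18.3 CPM in Inulin_PFOS and at 77.1, 55.3 and 24.4 CPM in Inulin (−1.48 ± 0.31, adjusted p = 0.0514). The hour of tissue collection is not given in the sources used here. Among NRF2 and glutathione genes the median was 0.12: Gpx2, the gut glutathione peroxidase, was at 981, 533 and 716 CPM in Inulin_PFOS and 89.9, 274 and 147 CPM in Inulin (2.13 ± 0.52, adjusted p = 0.0795), while Cat, catalase, was at 92.9, 114 and 112 CPM in Inulin_PFOS against 343, 201 and 172 CPM in Inulin (−1.17 ± 0.26, adjusted p = 0.0589). Bdh1, which interconverts ketone bodies, was at 77.2, 85.1 and 86.2 CPM in Inulin_PFOS and at 42.4, 53.9 and 38.9 CPM in Inulin (0.88 ± 0.20, adjusted p = 0.0602). The medians of cholesterol synthesis (0.15), bile acid transport (0.02), fatty acid synthesis (−0.17) and NRF2 genes changed sign when single libraries were left out. Without Inulin replicate 3 the median was −0.16 for cholesterol synthesis and −0.29 for bile acid transport, without Inulin replicate 2 it was 0.33 for fatty acid synthesis, and without Inulin_PFOS replicate 3 it was −0.10 for NRF2 genes. The cell cycle median of 0.39 ran between 0.01 (without Inulin_PFOS replicate 1) and 1.21 (without Inulin replicate 3), and that of immediate early genes (−0.35) between −0.44 and −0.28.

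**Figure D3:**
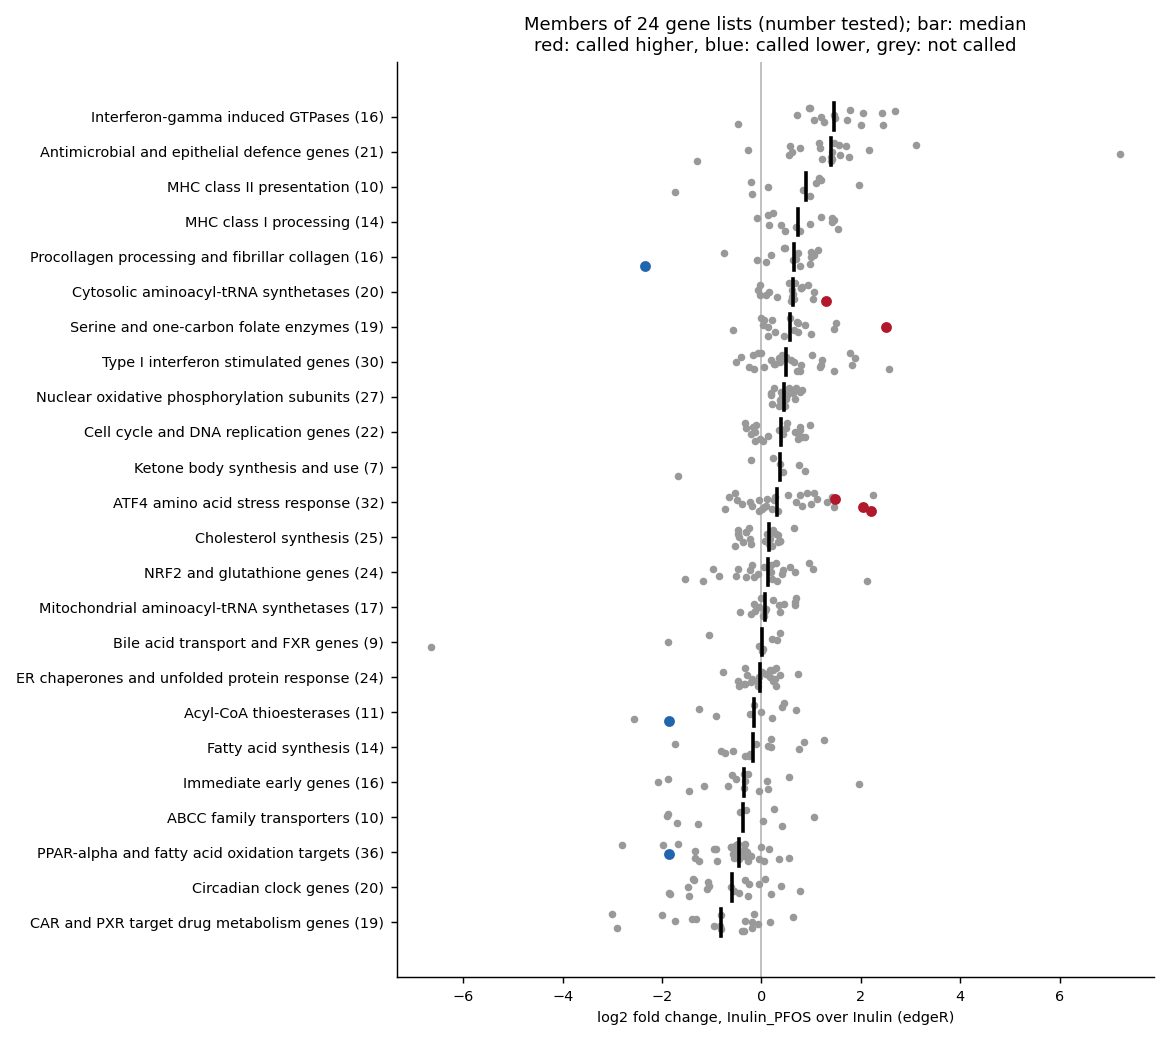
Log2 fold change of Inulin_PFOS over Inulin (x axis) for every tested member of 24 gene lists (rows, with the number tested), with a black bar at the list's median. Called members are red (higher) or blue (lower), and all others grey. Medians run from −0.82 for CAR and PXR targets to 1.46 for interferon-gamma induced GTPases, and 6 of the lists hold a called member, Acot1 standing in 2 of them.

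The 25 genes were then compared with the PFOS effect on the other fibres. On cellulose, PFOS against Control called 0 of 15763 genes with edgeR (842 at an unadjusted p under 0.05, 5.34%), while DESeq2 called 1 and limma on log2 TPM 0. On pectin, Pectin_PFOS against Pectin called 3277 genes (20.8%), 11.4% of all genes higher and 9.43% lower, while DESeq2 called 4089 and limma on log2(TPM + 1) called 1419. Among them were 4 of the 25, of which 3 were higher and 1 lower. Acot1 was lower there too, at 2.40 ± 0.931 CPM in Pectin_PFOS and 8.90 ± 3.92 CPM in Pectin (SD, n = 4; −1.88 ± 0.31, adjusted p = 0.00216), and Jdp2 was higher by 0.66 ± 0.23 (adjusted p = 0.0458). Cyp2d26 and Gm7694 were higher with PFOS on pectin, by 1.70 ± 0.39 and 1.11 ± 0.20 on the log2 scale, and lower with PFOS on inulin.

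Whether the PFOS effect differed between fibres was tested directly. For inulin minus cellulose no gene passed an adjusted p of 0.05 in edgeR: 3099 genes (19.7%) had an unadjusted p under 0.05 and the smallest adjusted p was 0.0984. DESeq2 called 654 genes, limma on log2 TPM 0, and edgeR without Control replicate 1 called 767. Leaving predicted gene models out, Mthfd2, Ltf and Asns had the smallest p. The difference was 2.31 ± 0.41 for Mthfd2, 2.10 ± 0.39 for Asns and 3.86 ± 0.72 for Ltf, the iron-binding lactoferrin, each with an adjusted p of 0.0984. For inulin minus pectin 4007 genes (25.4%) were called, 1936 with a higher and 2071 with a lower value on inulin. Scaled by library totals alone the calls were 2141 higher and 987 lower, with the median of all genes at 0.22 in place of 0.05. On log2(TPM + 1), limma called 664 higher and 1626 lower, with that median at −0.23. Of the 25 genes 23 passed this test, the exceptions being Acot1 (0.02 ± 0.52, adjusted p = 0.979) and Slc22a3 (−1.72 ± 0.65, adjusted p = 0.0574). The 25 were chosen by their change on inulin, which is part of this difference. That number was therefore largely set by the choice and cannot be held against the 25.4% of all genes. Among the 10 genes with the smallest p, Cubn, the ileal receptor for cobalamin bound to intrinsic factor, was lower by 0.87 ± 0.32 with PFOS on inulin (adjusted p = 0.17) and higher by 1.86 ± 0.29 on pectin (adjusted p = 0.00216), a difference of −2.74 ± 0.43 (adjusted p = 0.00376). Without Inulin replicate 1 the count was 1353, and without Inulin_PFOS replicate 3 it was 2172.

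**Figure D4:**
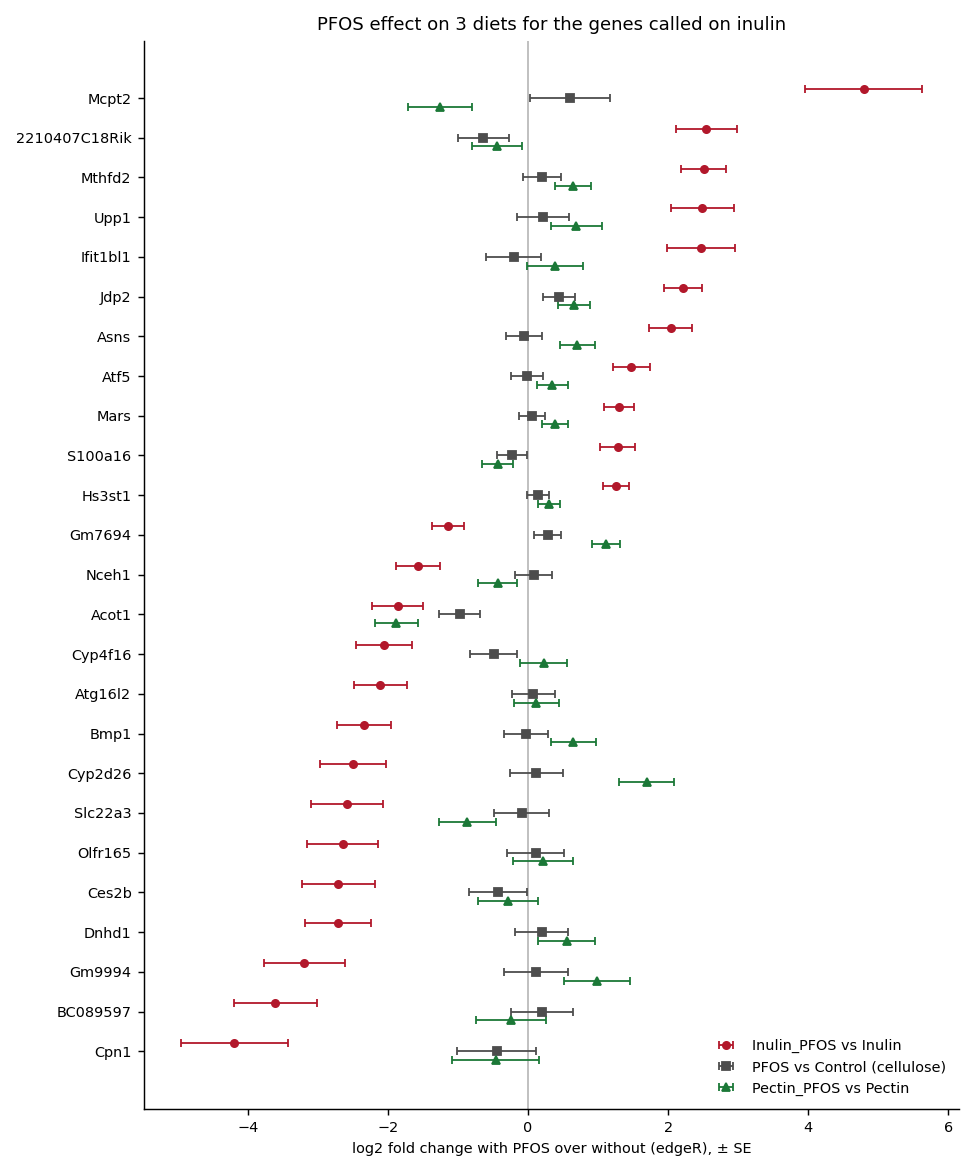
Log2 fold change with PFOS over without it, ± SE, for the 25 genes called on inulin (rows), on inulin (red circles), cellulose (grey squares) and pectin (green triangles). The cellulose values lie between −0.98 and 0.60 and the pectin values between −1.88 and 1.70, and Acot1 is the gene whose inulin and pectin values coincide.

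Levels in the 6 groups, given as a description with no test, show where the inulin groups stood. The mean of Inulin was nearer than that of Inulin_PFOS to PFOS for 24 of the 25 genes and to Control likewise for 24, on the log scale. For Pectin_PFOS the mean of Inulin_PFOS was the nearer one for 23 of the 25 genes, and for Pectin for 20. These genes were chosen by the gap between the inulin groups. The same counts were not made over all genes, so whether they are particular to the 25 is not known. Upp1 averaged 948 ± 167 CPM in Inulin_PFOS and 169 ± 51.1 CPM in Inulin (SD, n = 3), 189 ± 45.1 CPM in PFOS and 163 ± 47.3 CPM in Control, and 895 ± 409 CPM in Pectin_PFOS and 555 ± 310 CPM in Pectin (n = 4 each). Bmp1 averaged 27.2 ± 11.2 CPM in Inulin_PFOS and 138 ± 60.9 CPM in Inulin, 91.4 ± 30.1 CPM in PFOS and 93.6 ± 22.7 CPM in Control, and 31.3 ± 12.6 CPM in Pectin_PFOS and 20.0 ± 1.22 CPM in Pectin. On the log scale both pectin means were thus nearer to Inulin_PFOS for these genes, and both cellulose means nearer to Inulin. For Upp1 the Pectin libraries ran from 199 to 954 CPM. Pectin replicate 4, the lowest, lay within the Inulin range of 117 to 219 CPM. Mthfd2 was intermediate on pectin, at 14.8 ± 5.86 CPM in Pectin_PFOS and 9.47 ± 2.15 CPM in Pectin, against 4.61 ± 0.44 CPM in PFOS and 4.02 ± 1.00 CPM in Control. Acot1 differed from this pattern: Pectin had the highest mean, and each PFOS group was below its own unexposed group, at 3.05 ± 0.80 CPM in PFOS against 6.02 ± 1.26 CPM in Control on cellulose (−0.98 ± 0.30, adjusted p = 0.822).

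**Figure D5:**
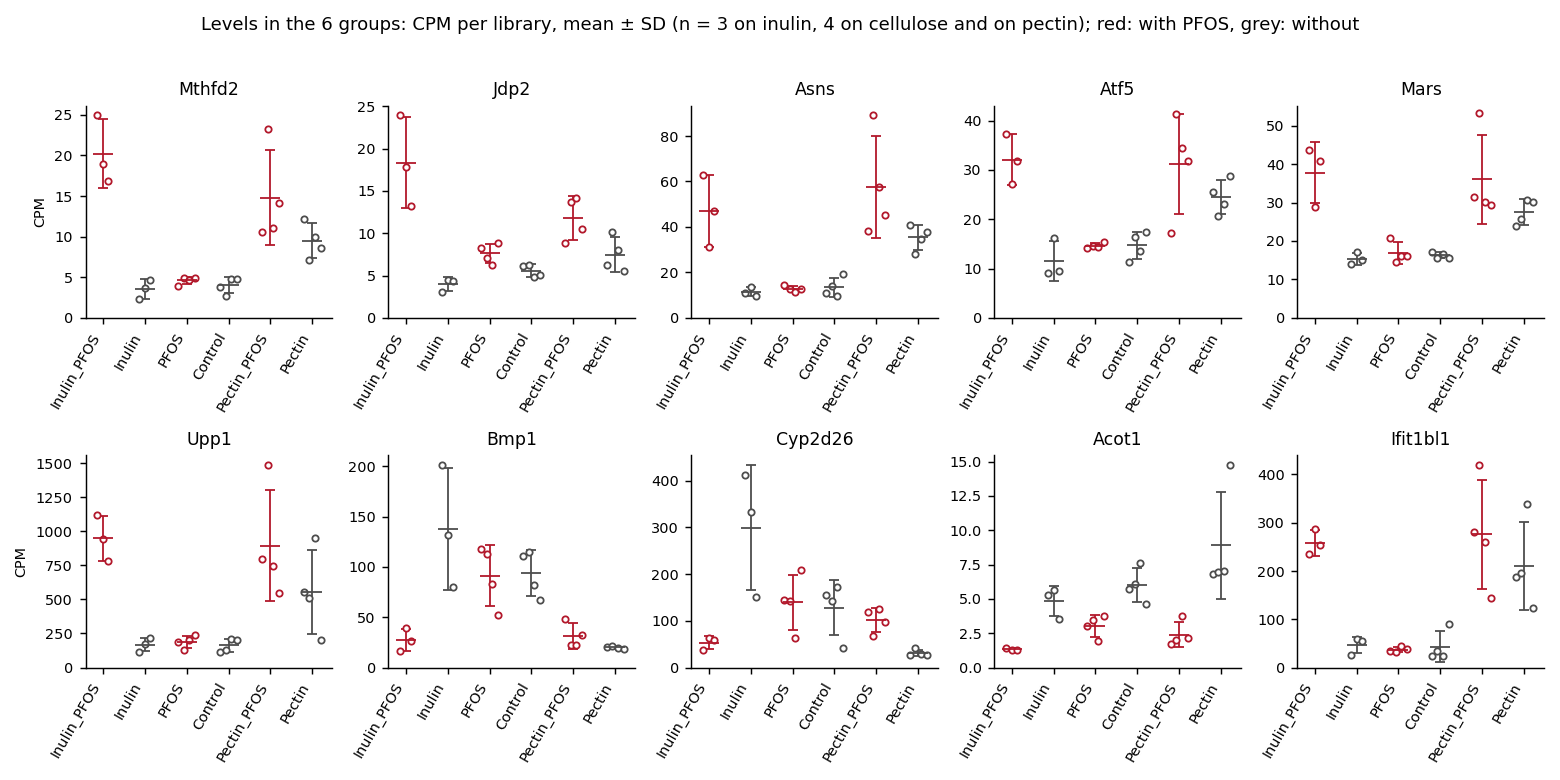
CPM per library (circles) with mean ± SD for 10 of the called genes in Inulin_PFOS, Inulin, PFOS, Control, Pectin_PFOS and Pectin, in that order from left to right, red with PFOS and grey without (n = 3 on inulin, 4 on cellulose and on pectin). For Asns, Atf5, Mars, Upp1 and Ifit1bl1 both pectin groups have means near or above those of Inulin_PFOS or between the inulin groups, while the cellulose groups sit with Inulin.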

How the data were processed

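Intestinal RNA of 22 mouse samples was sequenced as strand-specific libraries, per the labels' protocols. The authors deposited an estimated count (expected count) and a TPM value per gene for each sample. HISAT, Bowtie2 and GRCm39 appear in the submitters' processing notes without version or role, and the counting program is not given in the sources used here. Gene coordinates in the deposited tables match GRCm38: of 46005 genes shared with GENCODE M21, 38860 have the same start and end, and coordinates here are on that build.

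Expected counts were rounded and tested with edgeR 4.0.16 (R 4.3.3): TMM scaling, the default expression filter (15763 of 46603 genes kept), and 1 model with a mean per group over all 22 libraries, whose shared spread was a common dispersion of 0.102. The robust quasi-likelihood F test was two-sided, with Benjamini-Hochberg adjustment over all tested genes in each comparison and a threshold of 0.05. SEs were derived from the fold change and its F statistic. CPM are TMM-scaled. Intervals and counts of 0 cover counting error only. Alternatives used DESeq2 1.42.0 and limma 3.58.1 on log2 TPM. The edgeR fit was also run on simulated counts with known changes in Inulin_PFOS, and the outcome is not reported here. Apart from those changes, all simulated libraries shared 1 mean per gene. That run therefore cannot show how far the real calls depend on single libraries. No pair of the libraries compared within a group agreed within counting noise (chi-square per degree of freedom 54.4 at the least).

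The members, the 24 gene lists, the marker lists, the promoter motif and the rule for naming genes were chosen with earlier results of these data known. The rule named every called gene except predicted models, up to 4 members of each list by p with any called member, Cpt1a, Pdk4, Angptl4, Cyp4a10, Cyp2b10 and Atf4, and up to 10 called genes of each difference between fibres, or the 3 of smallest p where none was called. Ddit3, Phgdh, Fabp6, Slc10a2, near copies of called genes and the predicted models were added outside the rule, after their values were seen. Some genes that the rule names are not reported here. RefSeq promoter windows were matched by symbol.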

Additional observations from a re-analysis of the deposited data

Results flagged for a closer look

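The effect of PFOS on inulin differed from its effect on pectin, tested as the difference of the 2 log2 fold changes, for 4007 genes. Among the genes named for this comparison the difference was negative (lower on inulin) for Cyp2d26 (−4.19), Cpn1 (−3.73), BC089597 (−3.36), Dnhd1 (−3.27), Bmp1 (−2.985), Olfr165 (−2.86), Cubn (−2.74), Cry2 (−2.65), Ces2b (−2.425), Cyp4f16 (−2.28), Atg16l2 (−2.22) and Btnl2 (−2.18). It was also negative for Kdm6b (−1.93), Vps33b (−1.89), Gmip (−1.85), Tbc1d22b (−1.43) and Nceh1 (−1.14). It was positive for Mcpt2 (6.04), Ifit1bl1 (2.08), Znhit3 (1.96), Mthfd2 (1.86), Upp1 (1.80), S100a16 (1.72), Jdp2 (1.55), Asns (1.33), Atf5 (1.13), Hs3st1 (0.96) and Mars (0.91). Many of these genes were named because they were called on inulin, and that change is part of the difference.

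In the groups of 4, the level of 8 of 88 gene and group pairs had a library far from the other 3; chance flags about 1 pair in 20. Pectin_PFOS replicate 2 had 53.2 CPM of Mars against 29.4 to 31.4 CPM in its group. PFOS replicate 1 was highest for Olfr165 (13.9 CPM), Cyp4f16 (365 CPM) and S100a16 (43.5 CPM). Pectin replicate 4 was highest for Acot1 (14.8 CPM) and S100a16 (97.7 CPM), Control replicate 4 for Ifit1bl1 (91.2 CPM) and Pectin_PFOS replicate 1 for Nceh1 (11.1 CPM). The inulin groups, with 3 libraries each, were not examined in this way.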

How the results depend on the processing

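For Inulin_PFOS against Inulin, 25 genes were called. DESeq2 called 515 (211 higher, 304 lower, 24 of the 25 among them), a model of the 6 libraries alone 0, and limma on log2(TPM + 1) 12 (7 higher, 5 lower, with the median of all genes at −0.18), on log2(TPM + 0.1) 15 and on log2(TPM + 1) without the filter 9. Library totals, RLE scaling, other filters, the fit without robust weights and the removal of mitochondrial genes gave 22 to 35. Leaving out 1 replicate at a time gave 2 to 147 calls: 2 without Inulin replicate 1 or without Inulin_PFOS replicate 1, 3 without Inulin_PFOS replicate 3, 10 without Inulin_PFOS replicate 2, 53 without Inulin replicate 2, 147 without Inulin replicate 3 and 50 without Pectin_PFOS replicate 1. None of the 22 named called genes changed sign in any of these. For inulin minus cellulose, 0 genes were called, 654 with DESeq2, and 0 to 767 with 1 replicate left out (767 without Control replicate 1, 17 without Inulin replicate 3). For inulin minus pectin, 4007 genes were called, 2290, 2579 and 891 in the limma fits in the order above, and 1353 to 4591 with 1 replicate left out. H2-DMb2, at −1.75 on inulin, ran from −2.21 to 0.0377 when 1 replicate was left out, the last without Inulin replicate 3. The cause of these changes was not tested. Same-numbered libraries of the inulin groups had correlations of −0.0681, 0.247 and 0.0294 between their deviations from the group means. Differently numbered libraries were not compared, and replicate 2 joins the titles Inulin_4 and Inulin_PFOS_3. These values therefore cannot decide whether the libraries are paired. With the replicate block the counts were 33 for Inulin_PFOS against Inulin (18 higher, 15 lower, 22 shared), 0 for inulin minus cellulose and 4422 for inulin minus pectin. Genes with few counts, such as Mcpt2 and Slc22a3, are limited by depth.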

Other observations

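Among 8 genes listed as markers of the proximal small intestine, a pair had higher values in every Inulin_PFOS library, although neither passed the test. Every exposed library was higher for 12.2% of all genes tested. Adh6a, an alcohol dehydrogenase, was at 45.4, 23.1 and 36.2 CPM in Inulin_PFOS and at 0.903, 1.502 and 3.68 CPM in Inulin (log2 fold change 4.10 ± 0.84, adjusted p = 0.0511 in edgeR). Slc40a1, the iron exporter ferroportin, was at 140, 72.7 and 115 CPM in Inulin_PFOS and at 27.3, 24.8 and 31.8 CPM in Inulin (1.97 ± 0.58, adjusted p = 0.114). The list as a whole did not share this direction, with 2 positive and 5 negative values among its 7 tested genes. Its summed level was 219, 118 and 197 CPM in Inulin_PFOS and 140, 135 and 197 CPM in Inulin.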
